A study of Mus musculus with 9 samples.

Results

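The 10 genes described here carry out or control MHC class I presentation, and they were taken as the rows of the deposited mouse expression table with the symbols H2-K1, H2-D1, B2m, Tap1, Tap2, Tapbp, Psmb8, Psmb9, Psmb10 and Nlrc5, 10 of its 22322 genes. RNA was sequenced in 9 libraries of cultured retinal ganglion cells (RGCs) labelled WT, 3 in each of 3 groups. Normal RGCs were untreated. Aging RGCs were treated with D-galactose, a sugar used to induce senescence in culture. Aging RGCs + USCs medium received D-galactose and then medium conditioned by human urine-derived stem cells (USCs), from which the stem cells had been removed. All 3 groups came from purchased RGCs that were passaged with trypsin, the replicates of a group were wells, and no strain was given, so p-values measure the spread between wells. In bulk RNA, fewer cells of a type and less RNA per cell cannot be told apart. No sequenced group received unconditioned USC medium, so the medium and what the USCs added to it cannot be told apart either.

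Class I molecules display peptides from inside the cell to CD8 T cells. Proteasomes cut proteins into peptides, and in the immunoproteasome the catalytic subunits Psmb8, Psmb9 and Psmb10 take the places of Psmb5, Psmb6 and Psmb7. The transporter Tap1-Tap2 carries peptides into the endoplasmic reticulum, where tapasin (Tapbp) holds an empty class I molecule, a heavy chain such as H2-K1 or H2-D1 paired with the light chain B2m, beside it. Nlrc5 is the transactivator of class I promoters, and interferons raise most of these genes through Stat and Irf factors. Neurons are known for low class I levels at rest.

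Promoters of the classical genes carry a conserved block of motifs, which is shown here because Nlrc5 is the transactivator of class I promoters. RefSeq windows on GRCm38.p6 were given for 8 of the 10 members, all but Tap2 and Nlrc5, and the 250 bases before the start were searched on both strands. Capitals mark 4 motifs, which were TGACG (core of the X2 box), ATTGG (Y box), AANNGAAA (core of an interferon-response element) and a kB-like motif of GGGA and CC with any 4 bases between them. Overlapping kB-like matches were capitalised together. The stretches of H2-K1 (chr17:34000355-34000462, minus strand), H2-D1 (chr17:35262993-35263022, plus strand), B2m (chr2:122147546-122147642, plus strand) and the window shared by Tap1 and Psmb9 (chr17:34187458-34187487, plus strand) read as follows. All 4 lie before the RefSeq starts, but in GENCODE M21 the H2-D1 stretch falls within an exon of a longer H2-D1 transcript, and that of Tap1 and Psmb9 within an exon of a longer Psmb9 transcript.
H2-K1: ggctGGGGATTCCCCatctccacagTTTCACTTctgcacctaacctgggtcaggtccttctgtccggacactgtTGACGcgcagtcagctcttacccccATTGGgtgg
H2-D1: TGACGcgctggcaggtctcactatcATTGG
B2m: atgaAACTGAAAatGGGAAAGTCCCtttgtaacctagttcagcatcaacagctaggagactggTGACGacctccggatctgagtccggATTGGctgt
Tap1 and Psmb9: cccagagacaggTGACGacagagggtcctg

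H2-K1, H2-D1 and B2m each held TGACG and ATTGG exactly 20 bases apart, a spacing found in 30 of 32851 RefSeq windows, or 0.0913%. Alone, the motifs were common, with TGACG in 17.8% of windows, ATTGG in 33.8%, AANNGAAA in 21.3% and the kB-like motif in 17.6%. Over the 108 bases aligned, H2-K1 and H2-D1 were identical at 97, or 89.8%. Outside the 30 bases printed, H2-D1 also held 1 AANNGAAA match and 2 overlapping kB-like matches, with the same letters as those of H2-K1. A further ATTGG match of H2-D1 lay on the opposite strand, 53 to 49 bases before the start. The window of another RefSeq start of H2-K1 held the same spaced pair and a further ATTGG match on the opposite strand. Tap1 and Psmb9 are transcribed away from each other from starts 225 bases apart, and their shared window held 1 TGACG and 1 ATTGG without that spacing. Tapbp held 2 ATTGG matches, and Psmb8 and Psmb10 held none of the 4 motifs. These are matches of letters and not measured binding.

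On GRCm38, with GENCODE M21 gene models, 7 of the 10 members lie on chromosome 17. They are H2-K1 (chr17:33996017-34000347), H2-D1 (chr17:35262730-35267499), Tapbp (chr17:33915899-33929292), Psmb9 (chr17:34181987-34187764), Tap1 (chr17:34187553-34197225), Psmb8 (chr17:34197721-34201454) and Tap2 (chr17:34203527-34216321). B2m lies at chr2:122147686-122153083, Nlrc5 at chr8:94434356-94527272 and Psmb10 at chr8:105935735-105938444. Exons of Tap1 and Psmb9 overlap by 212 bases on opposite strands, and Tapbp shares 149 exonic bases with Zbtb22 on its own strand. On the opposite strand, Gm19412 shares 904 of the 3628 exonic bases of Tapbp, and Gm15821 shares 533 of the 3781 of Tap2. Gm20496 shares 498 of the 3381 of Psmb8 and 165 of those of Tap2, and 9330175E14Rik shares 78 with Nlrc5. The sources used here do not say whether counting used strand, so reads from overlapping exons could not be assigned.

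Libraries held 18189616 to 22342288 expected counts, and all 10 members passed the filter on low counts, which kept 12145 genes. Of 11 RGC marker genes, Pou4f2, Pou4f3 and Atoh7 had 0 counts in all 9 libraries and Thy1 had at most 1, so the labelled cell type was not borne out by its defining markers. Nefl, Rbpms and Isl1 were detected, and the summed RGC list ranged from 139 to 150 CPM (reads of a gene relative to all reads of its library) in normal RGCs, from 99.2 to 103 in aging RGCs and from 75.4 to 83.5 in medium-treated cells. The 12 macrophage genes summed to 60.3 to 72.3, 44.9 to 51.6 and 31 to 56.2 CPM in the same order. Most of that sum was Cd68, with means of 38.6, 41.5 and 31.3 CPM. Of 9 macrophage genes tested by edgeR, 7 fell and 0 rose in aging against normal RGCs, beside 23% and 23.6% of all genes. Adgre1 went from 1.84 to 0.0529 CPM and Itgam from 1.39 to 0.21 CPM there, while Cd68 and Ptprc were not called. In medium-treated against normal RGCs 6 fell and 0 rose, beside 29.9% and 30.6%. Medium-treated replicate 3 stood apart in the macrophage genes, with Lyz2, a lysozyme of macrophages, at 12.3 CPM against 2.31 and 0.992 in replicates 1 and 2. Class II genes, which mark professional antigen-presenting cells, summed to 10.5 to 11.3, 7.46 to 8.35 and 3.64 to 4.52 CPM. Most of that sum was Cd74, with means of 9.20, 5.25 and 2.94 CPM. H2-Aa, H2-Ab1, H2-Eb1 and Ciita had at most 3 counts in a library. H2-DMa and H2-DMb1 gave log2 0.50 and 0.59 in aging RGCs (adjusted p = 0.248 and 0.187, edgeR). Both fell with the medium (adjusted p = 0.00366 and 0.022, edgeR). The 5 T and NK cell genes had 0 counts throughout. The part of these cells in the results was not tested. Without medium-treated replicate 3, 4, 3 and 5 members changed in the 3 comparisons given below, against 4, 3 and 4 with it.

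Per transcript length, B2m was the most abundant member, at 806 ± 33.4 FPKM (fragments scaled by transcript length and library size; SD, n = 3) in normal RGCs. H2-K1 (217 ± 2.71 FPKM) and H2-D1 (185 ± 6.26 FPKM) followed, and Tapbp stood at 99.9 ± 8.05 FPKM. The order then fell to Psmb8 (31.1 ± 2.04 FPKM), Tap2 (12.01 ± 0.407 FPKM), Psmb10 (7.20 ± 0.865 FPKM), Tap1 (6.84 ± 0.821 FPKM), Nlrc5 (4.27 ± 0.223 FPKM) and Psmb9 (2.33 ± 0.166 FPKM). Ranges of Psmb10 and Tap1 overlapped in normal RGCs, where Psmb10 spanned 6.32 to 8.05 FPKM and Tap1 6.15 to 7.75 FPKM, and no other neighbours in this order did. In aging RGCs they no longer did, with Psmb10 at 11.6 ± 0.635 FPKM and Tap1 at 5.85 ± 0.514 FPKM. Transcripts for the heavy and light chains, the surface molecule itself, were thus far above those for the transporter and the inducible proteasome subunits in every group.

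Neither classical heavy chain passed edgeR's quasi-likelihood test in any comparison. H2-K1 stood at 327, 338 and 337 CPM in normal RGCs, at 338, 331 and 339 CPM in aging RGCs and at 339, 346 and 343 CPM in medium-treated cells. Its log2 difference was 0.01 ± 0.03 (SE) for aging against normal RGCs, with a 95% interval of -0.05 to 0.07, and 0.03 (-0.04 to 0.09) for medium-treated against aging RGCs. H2-D1 stood at 358, 376 and 355 CPM, then 359, 350 and 357 CPM, then 362, 387 and 376 CPM. Its 3 medium-treated values lay above its 3 aging values, and this difference of 0.08 ± 0.03 on the log2 scale had an adjusted p of 0.054 by edgeR's quasi-likelihood test, of 0.0338 by DESeq2 and of 0.0327 with only the 2 groups fitted, while limma on log2(FPKM + 1) gave a log2 difference of -0.00773 (adjusted p = 0.871). H2-K1 and H2-D1 are close relatives, and their expected counts carried decimals in 2 and 4 of the 9 libraries, as happens where reads are shared between genes.

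B2m, the light chain, rose in aging RGCs and fell with the medium. It stood at 640, 698 and 686 CPM in normal RGCs, at 737, 744 and 776 CPM in aging RGCs and at 704, 703 and 705 CPM in medium-treated cells. All aging values lay above all others. The rise in aging RGCs was 11.6% (log2 0.16 ± 0.03, adjusted p = 0.000206, edgeR), and the medium-treated level was lower than the aging level by a log2 difference of -0.10 ± 0.03 (adjusted p = 0.0142, edgeR), a call lost without aging replicate 3 (adjusted p = 0.116, edgeR). Medium-treated and normal cells did not differ past the threshold (adjusted p = 0.101, edgeR), but did without normal replicate 2 (0.0258). B2m FPKM over the sum of H2-K1 and H2-D1 FPKM was 1.94, 2.03 and 2.05 in normal RGCs, 2.18, 2.26 and 2.3 in aging RGCs and 2.08, 1.99 and 2.03 in medium-treated cells, a ratio added after the values were seen and not tested.

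**Figure D1:**
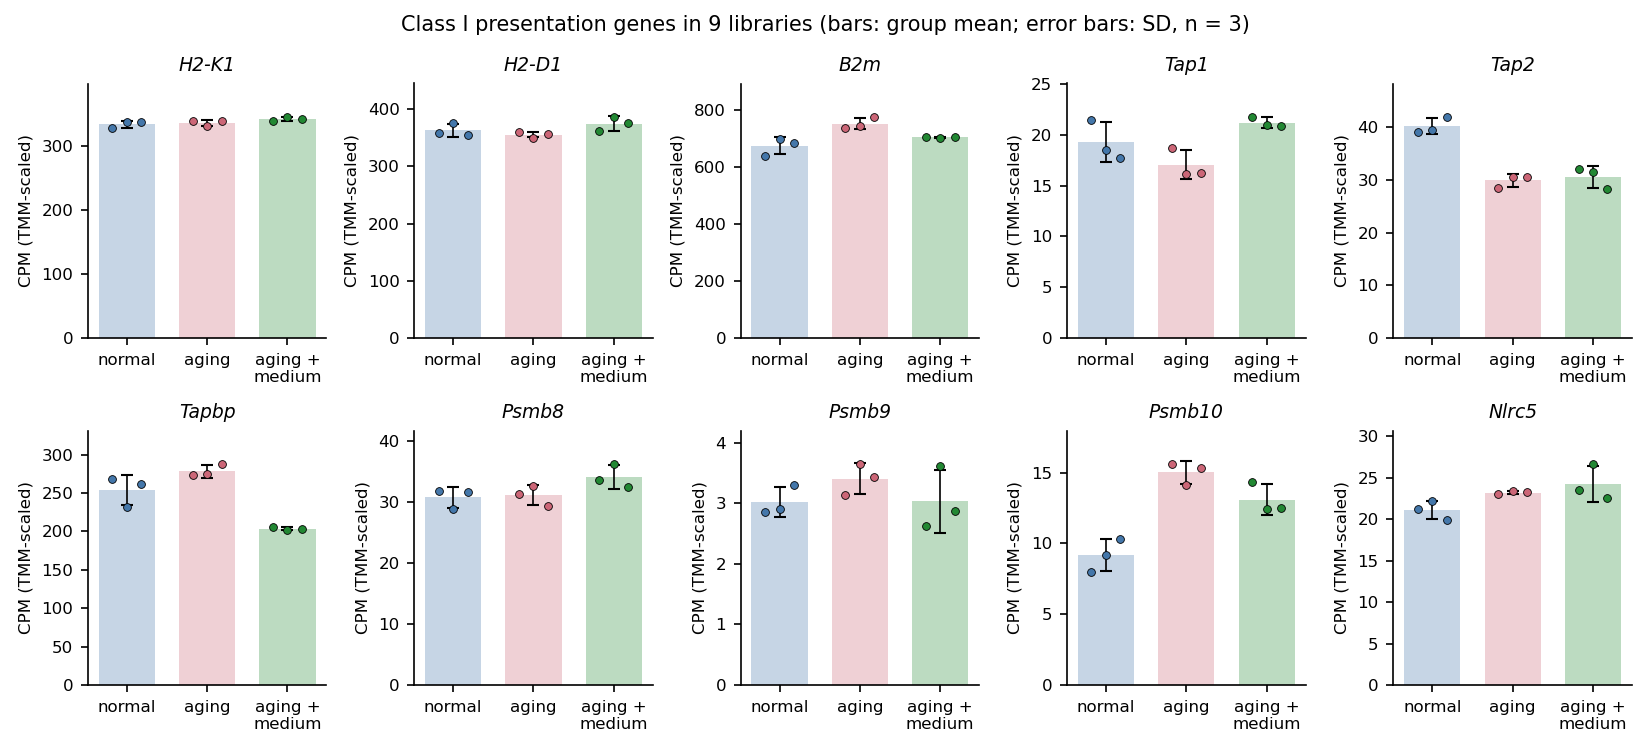
Level of each of the 10 class I presentation genes in CPM (y axis, from 0, TMM-scaled) in the normal, aging and medium-treated groups (x axis), with points for libraries, bars for group means and error bars for SD (n = 3). Psmb10 is higher and Tap2 lower in both D-galactose groups, Tapbp is lowest with the medium, and H2-K1 spans 327 to 346 CPM over all libraries.

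The subunits of the peptide transporter were called in different comparisons, Tap2 against normal RGCs and Tap1 with the medium. Tap2 stood at 39.2, 39.4 and 42.0 CPM in normal RGCs, at 28.6, 30.6 and 30.5 CPM in aging RGCs and at 32.0, 31.5 and 28.2 CPM in medium-treated cells. Every D-galactose library lay below every normal one, and Tap2 fell by 0.43 ± 0.06 on the log2 scale in aging RGCs (adjusted p = 2.93e-06, edgeR) and by 0.39 ± 0.06 in medium-treated against normal RGCs (adjusted p = 4.6e-06, edgeR). Medium-treated against aging RGCs gave a log2 difference of 0.03, with a 95% interval of -0.10 to 0.17.

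Tap1 stood at 21.5, 18.5 and 17.8 CPM in normal RGCs, at 18.7, 16.2 and 16.3 CPM in aging RGCs and at 21.8, 20.9 and 20.8 CPM in medium-treated cells. The medium-treated values lay above all aging values, and Tap1 rose with the medium by 24.4% (log2 0.32 ± 0.09, adjusted p = 0.00277, edgeR). With limma on log2(FPKM + 1) that adjusted p was 0.0546. Aging against normal RGCs gave a log2 difference of -0.18 ± 0.09 (adjusted p = 0.0866, edgeR), with overlapping values, and passed without aging replicate 1 (0.032) or normal replicate 3 (0.042). Medium-treated against normal RGCs gave 0.13 ± 0.08 (adjusted p = 0.164, edgeR) and passed without normal replicate 1 (0.0335). The ratio of Tap1 to Tap2 FPKM was 0.659, 0.562 and 0.493 in normal RGCs, 0.764, 0.575 and 0.621 in aging RGCs and 0.837, 0.777 and 0.861 in medium-treated cells. Across the 3 groups this ratio gave p = 0.0357 by an exact permutation test of F over 1680 assignments, and 0.0714 adjusted over the 4 ratios tested.

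Tapbp, which bridges the transporter and the heavy chain, gave the largest difference between medium-treated and aging RGCs of any member. It stood at 268, 232 and 262 CPM in normal RGCs, at 273, 274 and 288 CPM in aging RGCs and at 206, 202 and 203 CPM in medium-treated cells. The groups did not overlap in any comparison. Tapbp fell by 0.45 ± 0.04 on the log2 scale from aging to medium-treated RGCs (adjusted p = 4.14e-10, edgeR) and by 0.32 ± 0.04 from normal to medium-treated RGCs (adjusted p = 1.37e-07, edgeR). The rise of 9.51% in aging RGCs (adjusted p = 0.00968, edgeR) rested on 2 libraries, since it gave adjusted p = 0.133 without normal replicate 2 and 0.0744 without aging replicate 3, and it gave 0.203 with limma on log2(FPKM + 1).

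Of the 3 immunoproteasome subunits, Psmb10 passed edgeR's quasi-likelihood test in both comparisons with normal RGCs. Psmb10 (the MECL-1 subunit) stood at 8.01, 9.21 and 10.3 CPM in normal RGCs, at 15.6, 14.1 and 15.3 CPM in aging RGCs and at 14.3, 12.4 and 12.5 CPM in medium-treated cells, on 185 to 302 counts per library. Every D-galactose library lay above every normal one. Psmb10 rose by 64% in aging RGCs (log2 0.71 ± 0.11, adjusted p = 2.48e-06, edgeR) and by 42.9% in medium-treated against normal RGCs (log2 0.51 ± 0.11, adjusted p = 0.000144, edgeR). Medium-treated against aging RGCs gave a log2 difference of -0.20 ± 0.10, with a 95% interval of -0.41 to 0.01 (adjusted p = 0.102, edgeR). That decrease passed the threshold with limma on log2(FPKM + 1) (adjusted p = 0.0331) and without TMM factors (0.0223).

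Psmb8 (LMP7) stood at 31.7, 28.8 and 31.7 CPM, then 31.4, 32.6 and 29.4 CPM, then 33.6, 36.3 and 32.5 CPM in normal, aging and medium-treated cells. Its medium-treated values lay above its normal ones, with a log2 difference of 0.15 ± 0.07 and an adjusted p of 0.0515 by edgeR's quasi-likelihood test. It passed with edgeR's likelihood ratio test (adjusted p = 0.0475), with only the 2 groups fitted (0.0491) and without medium-treated replicate 3 (0.0349), normal replicate 1 (0.0478) or aging replicate 3 (0.0493). Psmb9 (LMP2) was the least abundant member, at 2.86, 2.91 and 3.31 CPM, then 3.14, 3.66 and 3.44 CPM, then 2.62, 3.62 and 2.87 CPM, on 51 to 73 counts per library. At that depth its log2 difference between aging and normal RGCs, 0.18, had a wide 95% interval of -0.22 to 0.57. That interval holds increases larger in size than the changes called for Tap2 or Tapbp, but not decreases as large as those called for them.

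Psmb5, Psmb6 and Psmb7 did not pass the test in aging RGCs, where 23.6% of all genes rose and 23% fell. All 3 rose in medium-treated against aging RGCs, beside 27.1% of all genes up and 26% down. Psmb7 went from 128 ± 4.55 to 178 ± 7.06 CPM (log2 0.47, adjusted p = 2.22e-10, edgeR), Psmb6 from 101 ± 2.42 to 126 ± 8.28 CPM (log2 0.32, adjusted p = 5.8e-07, edgeR) and Psmb5 from 63.1 ± 2.04 to 73.1 ± 6.82 CPM (log2 0.21, adjusted p = 0.00188, edgeR). With limma on log2(FPKM + 1), Psmb5 had an adjusted p of 0.0951. The expected counts of Psmb7 carried decimals in all 9 libraries. The Psmb10 to Psmb7 ratio in FPKM was 0.0579, 0.0645 and 0.0801 in normal RGCs, 0.104, 0.0987 and 0.109 in aging RGCs and 0.0712, 0.0595 and 0.0648 in medium-treated cells. The aging values lay above all others, and normal and medium-treated values overlapped. This ratio gave p = 0.0321 by the exact permutation test across the 3 groups, and 0.0714 adjusted over the 4 ratios.

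The Psmb9 to Psmb6 ratio averaged 0.0171 ± 0.0015, 0.0206 ± 0.002 and 0.0158 ± 0.00252 in normal, aging and medium-treated cells (SD, n = 3, exact permutation p = 0.0571, adjusted 0.0762). The Psmb8 to Psmb5 ratio averaged 0.415 ± 0.0359, 0.432 ± 0.0325 and 0.418 ± 0.019 (SD, n = 3, exact permutation p = 0.736). In the sequence of subunits, the inducible form was therefore closest to its counterpart for Psmb8 and lowest for Psmb9 in every group. No ratio passed after adjustment, and the smallest p this design allows is 0.00357 over 3 groups and 0.1 for 3 against 3.

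**Figure D2:**
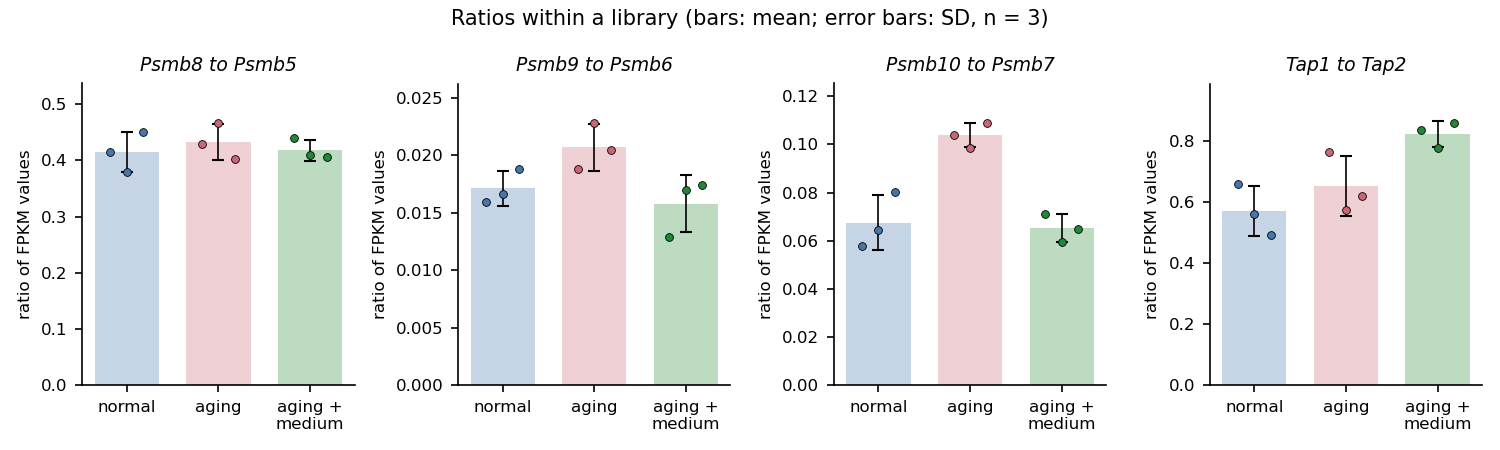
Ratios of 2 FPKM values in the same library (y axes, from 0, no unit) in the 3 groups (x axis), with points for libraries, bars for means and error bars for SD (n = 3). The Psmb10 to Psmb7 ratio is 0.0987 to 0.109 in aging RGCs and at most 0.0801 elsewhere, and the Tap1 to Tap2 ratio is 0.777 to 0.861 with the medium and at most 0.764 elsewhere.

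Nlrc5, the class I transactivator, stood at 21.2, 22.2 and 19.9 CPM in normal RGCs, at 22.98, 23.4 and 23.2 CPM in aging RGCs and at 23.5, 26.7 and 22.5 CPM in medium-treated cells. All D-galactose libraries lay above the normal ones. By edgeR's quasi-likelihood test, only medium-treated against normal RGCs passed, at log2 0.20 ± 0.08 (adjusted p = 0.0242, edgeR). That call was lost without medium-treated replicate 2 (adjusted p = 0.198, edgeR), without normal replicate 3 (0.107), without TMM factors (0.258) and with upper-quartile factors (0.0618). With limma on log2(FPKM + 1) the log2 difference was 0.0059 (adjusted p = 0.965), and on log2(FPKM + 0.1) it was 0.0056 (0.974). In FPKM the group means of Nlrc5 were 4.27 ± 0.223, 4.08 ± 0.525 and 4.32 ± 0.616.

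Counted over the members, aging RGCs showed 3 genes upregulated (B2m, Tapbp and Psmb10) and 1 downregulated (Tap2) against normal RGCs. Of all genes tested, 23.6% were upregulated and 23% downregulated in that comparison, so the members' share lay near the background. With the medium, 1 member rose (Tap1) and 2 fell (B2m and Tapbp) against aging RGCs, where 27.1% of all genes rose and 26% fell. Against normal RGCs, medium-treated cells had 2 members up (Psmb10 and Nlrc5) and 2 down (Tap2 and Tapbp), beside 30.6% and 29.9% of all genes. Without TMM factors, members up and down numbered 3 and 1, 1 and 3, and 1 and 2 in the 3 comparisons, and all genes 2534 and 3084, 2346 and 4199, and 2593 and 4889, against 2861 and 2788, 3292 and 3154, and 3716 and 3634 with them. No member changed at least 2-fold in any comparison, a size reached with an adjusted p under 0.05 by 2.65%, 5.44% and 6.72% of all genes in the same order.

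The median absolute log2 change of the members was 0.147, 0.115 and 0.142 in the 3 comparisons, beside 0.181, 0.207 and 0.252 over all genes tested. Their median signed change was 0.07, 0.03 and 0.05, beside medians of 0.002, -0.007 and -0.013 over all genes. The 3 comparisons share libraries, so their values are set side by side and are not independent. By member, Tap2 and Psmb10 differed from normal RGCs in both D-galactose groups. B2m and Tapbp were called up in aging against normal RGCs and down in medium-treated against aging RGCs. H2-K1, H2-D1, Psmb8 and Psmb9 passed edgeR's quasi-likelihood test in no comparison, although H2-D1 and Psmb8 each passed in 1 comparison under other settings, as given above.

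**Figure D3:**
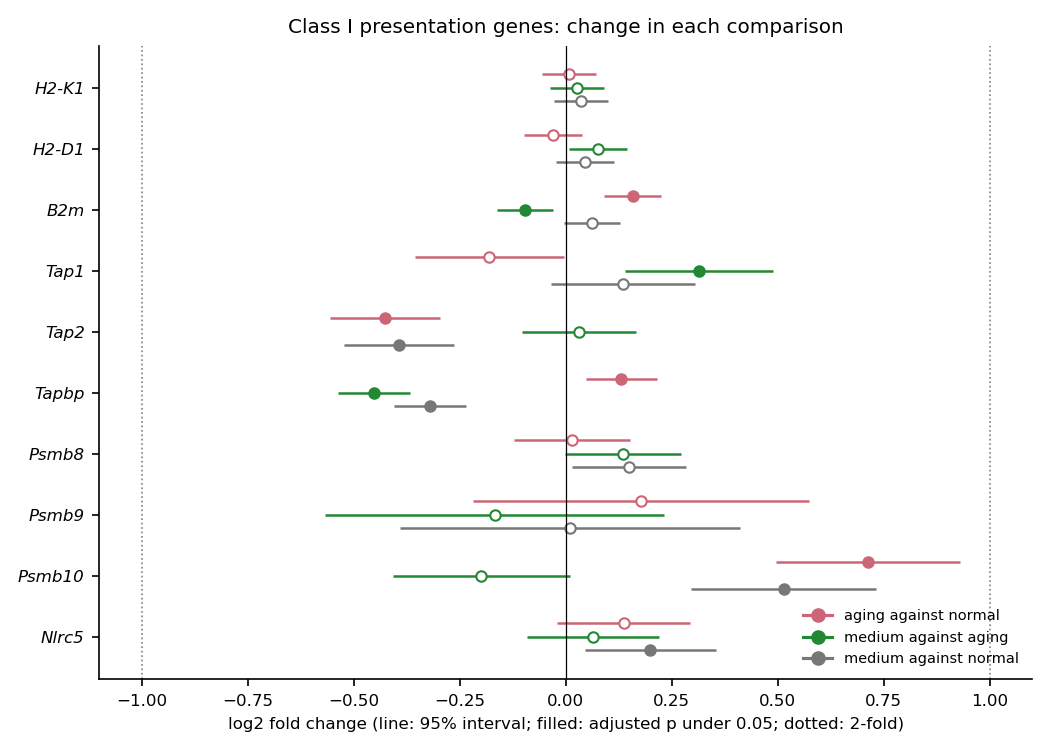
Log2 fold change of each member in 3 comparisons (x axis), with 95% intervals as lines and filled points for an adjusted p under 0.05 in edgeR. Psmb10 lies farthest right for aging against normal RGCs (0.71), Tapbp farthest left for medium-treated against aging RGCs (-0.45), and no point reaches the dotted 2-fold lines.

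Levels of the members did not move as a unit over the libraries. The correlation of each member's log2 CPM with the mean z-score of all 10, to which it contributes, ran from -0.562 for Tap2 to 0.874 for Nlrc5 over 9 libraries. Among 9253 other genes, those most like that mean were Hic1 (r = 0.957), Sptssa (0.955), Ndufb5 (0.943), Dclre1a (0.921) and 4933434E20Rik (0.915). These correlations describe 9 libraries in 3 groups and carry no test.

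The wider pathway was described by a list of 48 genes, of which 46 were in the table and 40 were tested. The list was chosen with earlier results of these data known. Its counts, here and by role below, are therefore descriptive, and their difference from the share of all genes was not tested. Of the 40, 13 rose and 6 fell in aging against normal RGCs, where 23.6% of all genes rose and 23% fell. In medium-treated against aging RGCs 15 rose and 7 fell, beside 27.1% and 26% of all genes, and in medium-treated against normal RGCs 18 rose and 10 fell, beside 30.6% and 29.9%. Without TMM factors these numbers were 12 and 8, 11 and 11, and 12 and 13, and with limma on log2(FPKM + 1) they were 7 and 8, 10 and 10, and 10 and 13. No gene of the list reached 2-fold. The median log2 change of the list was -0.03, 0.06 and 0.04.

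Among the other class I heavy chains, 1 rose and 4 fell of 8 tested in aging RGCs, beside 23.6% and 23% of all genes. H2-T23, which encodes the Qa-1 molecule that presents class I leader peptides to NK cell receptors, stood at 28.9, 31.2 and 25.6 CPM in normal RGCs, at 18.7, 17.9 and 18.8 CPM in aging RGCs and at 15.8, 17.5 and 16.7 CPM in medium-treated cells. All D-galactose values lay below the normal ones (log2 -0.63, adjusted p = 1.58e-07 for aging and log2 -0.77, adjusted p = 1.83e-09 for medium-treated against normal RGCs, edgeR), and its counts carried decimals in all 9 libraries.

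Mr1, which presents vitamin B metabolites to MAIT cells, stood at 36.4, 32.4 and 36.4 CPM, then 20.3, 22.5 and 21.9 CPM, then 24.2, 24.5 and 25.7 CPM in normal, aging and medium-treated cells. It gave the largest decrease of the list in aging RGCs (log2 -0.70, adjusted p = 2.6e-09, edgeR), and was also lower in medium-treated than in normal RGCs (log2 -0.50, adjusted p = 3.28e-07, edgeR). Against aging RGCs, Mr1 rose with the medium (log2 0.20, adjusted p = 0.0217, edgeR). That call was lost in 5 of 19 alternatives, among them limma on log2(FPKM + 1) (0.11) and the fit without TMM factors (0.159). H2-M3, which presents N-formyl peptides, stood at 14.3, 14.9 and 16.0 CPM, then 9.14, 9.99 and 10.7 CPM, then 13.5, 16.7 and 13.2 CPM. It fell in aging RGCs (log2 -0.60, adjusted p = 2.86e-05, edgeR) and rose with the medium (log2 0.54, adjusted p = 9.86e-05, edgeR). H2-T24 fell in aging RGCs (log2 -0.54, adjusted p = 0.0151, edgeR), a call that rested on aging replicate 3, without which the adjusted p was 0.157, and that was lost with limma on log2(FPKM + 1) (0.0527). H2-Q4, named after its values were seen, moved the other way, from 28.7 ± 1.82 to 35.2 ± 3.19 CPM in aging RGCs (log2 0.29, adjusted p = 0.00148, edgeR). With the medium H2-Q4 fell against aging RGCs (log2 -0.235, adjusted p = 0.00827, edgeR). That call was lost without aging replicate 1 (0.0969) or medium-treated replicate 1 (0.0744). The expected counts of H2-Q4 carried decimals in 6 of the 9 libraries.

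**Figure D4:**
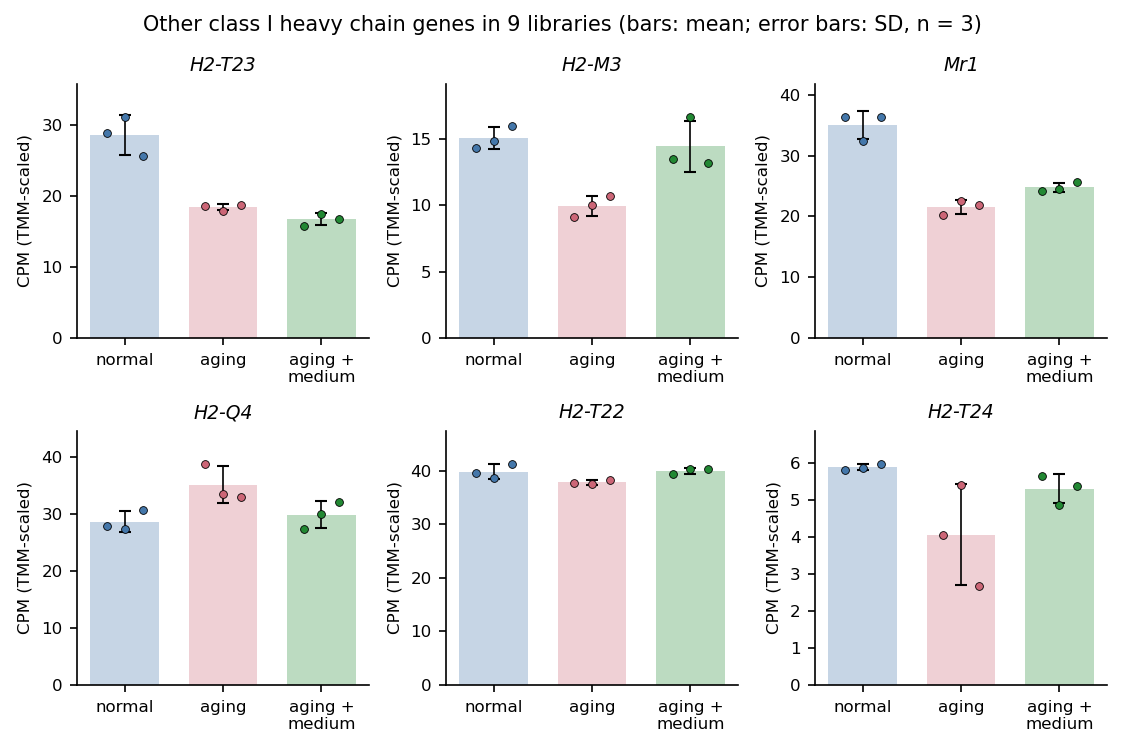
Level of 6 other class I heavy chain genes in CPM (y axis, from 0, TMM-scaled) in the 3 groups (x axis), with points for libraries, bars for means and error bars for SD (n = 3). H2-T23 and Mr1 are lower in both D-galactose groups, H2-M3 is lowest in aging RGCs (9.14 to 10.7 CPM), and H2-Q4 is highest in aging RGCs.

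Genes of peptide loading and trimming rose in 5 of 6 cases in aging RGCs, beside 23.6% of all genes, and in 5 of 6 in medium-treated against normal RGCs, beside 30.6%. These counts come from the list chosen with earlier results known and were not tested for enrichment. The chaperone Calr, chosen with Irf1 after values were seen, averaged 736 ± 28.8 CPM in the normal, 804 ± 15 CPM in the aging (adjusted p = 0.00108, edgeR) and 937 ± 2.93 CPM in the medium-treated group. Tapbpl, the peptide editor related to tapasin, stood at 7.95 ± 1.45, 9.84 ± 0.294 and 11.6 ± 0.862 CPM, and was higher in medium-treated than in normal RGCs (log2 0.55, adjusted p = 0.000281, edgeR). In aging RGCs the values of Tapbpl overlapped with normal ones, and its call there (adjusted p = 0.0397, edgeR) was lost with DESeq2 (0.0665), with limma on log2(FPKM + 1) (0.0839) and without normal replicate 1 (0.236), normal replicate 3 (0.11) or any of the 3 aging replicates (0.102, 0.0599 and 0.0854). Its expected counts carried decimals in 6 of the 9 libraries. Tapbp itself differed from its relative Tapbpl in direction in medium-treated against normal RGCs.

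The proteasome activators rose in 2 of 3 cases in aging RGCs, beside 23.6% of all genes, and in 3 of 3 in medium-treated against normal RGCs, beside 30.6%. Psme3, the nuclear activator PA28 gamma, averaged 186 ± 1.7, 204 ± 4.71 and 252 ± 4.6 CPM in the normal, aging and medium-treated groups (log2 0.44 against normal RGCs, adjusted p = 6e-12, edgeR). In aging against normal RGCs, Psme3 had an adjusted p of 0.0016 by edgeR and of 0.395 with limma on log2(FPKM + 1). The 3 constitutive subunits rose in medium-treated against aging RGCs, beside 27.1% of all genes, and against normal RGCs, beside 30.6%. Psmb5 against normal RGCs, however, gave adjusted p = 0.236 without medium-treated replicate 2 and 0.405 without TMM factors (edgeR).

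Of 13 transcriptional regulators, 5 rose and 2 fell in aging RGCs, beside 23.6% and 23% of all genes. With the medium 3 rose and 2 fell against aging RGCs, beside 27.1% and 26%, and 5 rose and 3 fell against normal RGCs, beside 30.6% and 29.9%. Irf1, an interferon-induced activator of class I genes, stood at 37.9 ± 0.864, 46.0 ± 1.75 and 42.4 ± 1.71 CPM in normal, aging and medium-treated cells (log2 0.28 in aging RGCs, adjusted p = 0.000161, edgeR). Nfyc, a subunit of the factor that binds the Y box, rose from 45.1 to 56.9 CPM in aging RGCs (adjusted p = 5.21e-06, edgeR), and Rfxank, a subunit of the X box factor RFX, was lower, at 12.04 against 15.9 CPM (adjusted p = 0.000536, edgeR). With limma on log2(FPKM + 1), Nfyc had an adjusted p of 0.0572. The expected counts of Rfxank carried decimals in all 9 libraries. Rfx5, another RFX subunit, fell with the medium from 39.0 ± 1.55 to 26.7 ± 2.49 CPM (log2 -0.55, adjusted p = 7.42e-08, edgeR).

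Of 7 interferon receptors and kinases, 0 passed in aging RGCs by edgeR at an adjusted p under 0.05, 0 had an unadjusted p under 0.05, and DESeq2 called 0, beside 23.6% of all genes up and 23% down by edgeR. Without normal replicate 1, and without aging replicate 1, 1 of the 7 was called, in the latter case Ifngr2 (adjusted p = 0.0383, edgeR). With the medium, 2 rose and 3 fell against aging RGCs, beside 27.1% and 26% of all genes, and 2 rose and 4 fell against normal RGCs, beside 30.6% and 29.9%. Tyk2, a kinase of the type I interferon receptor, fell from 27.3 ± 1.68 to 18.5 ± 0.95 CPM (log2 -0.56, adjusted p = 2.05e-07, edgeR), and Ifngr2, a chain of the interferon gamma receptor, from 36.3 to 27.5 CPM (log2 -0.40, adjusted p = 1.55e-05, edgeR). Stat2, which acts downstream of that kinase, rose from 9.89 ± 0.699 to 14.9 ± 0.775 CPM (log2 0.59, adjusted p = 1.08e-05, edgeR).

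**Figure D5:**
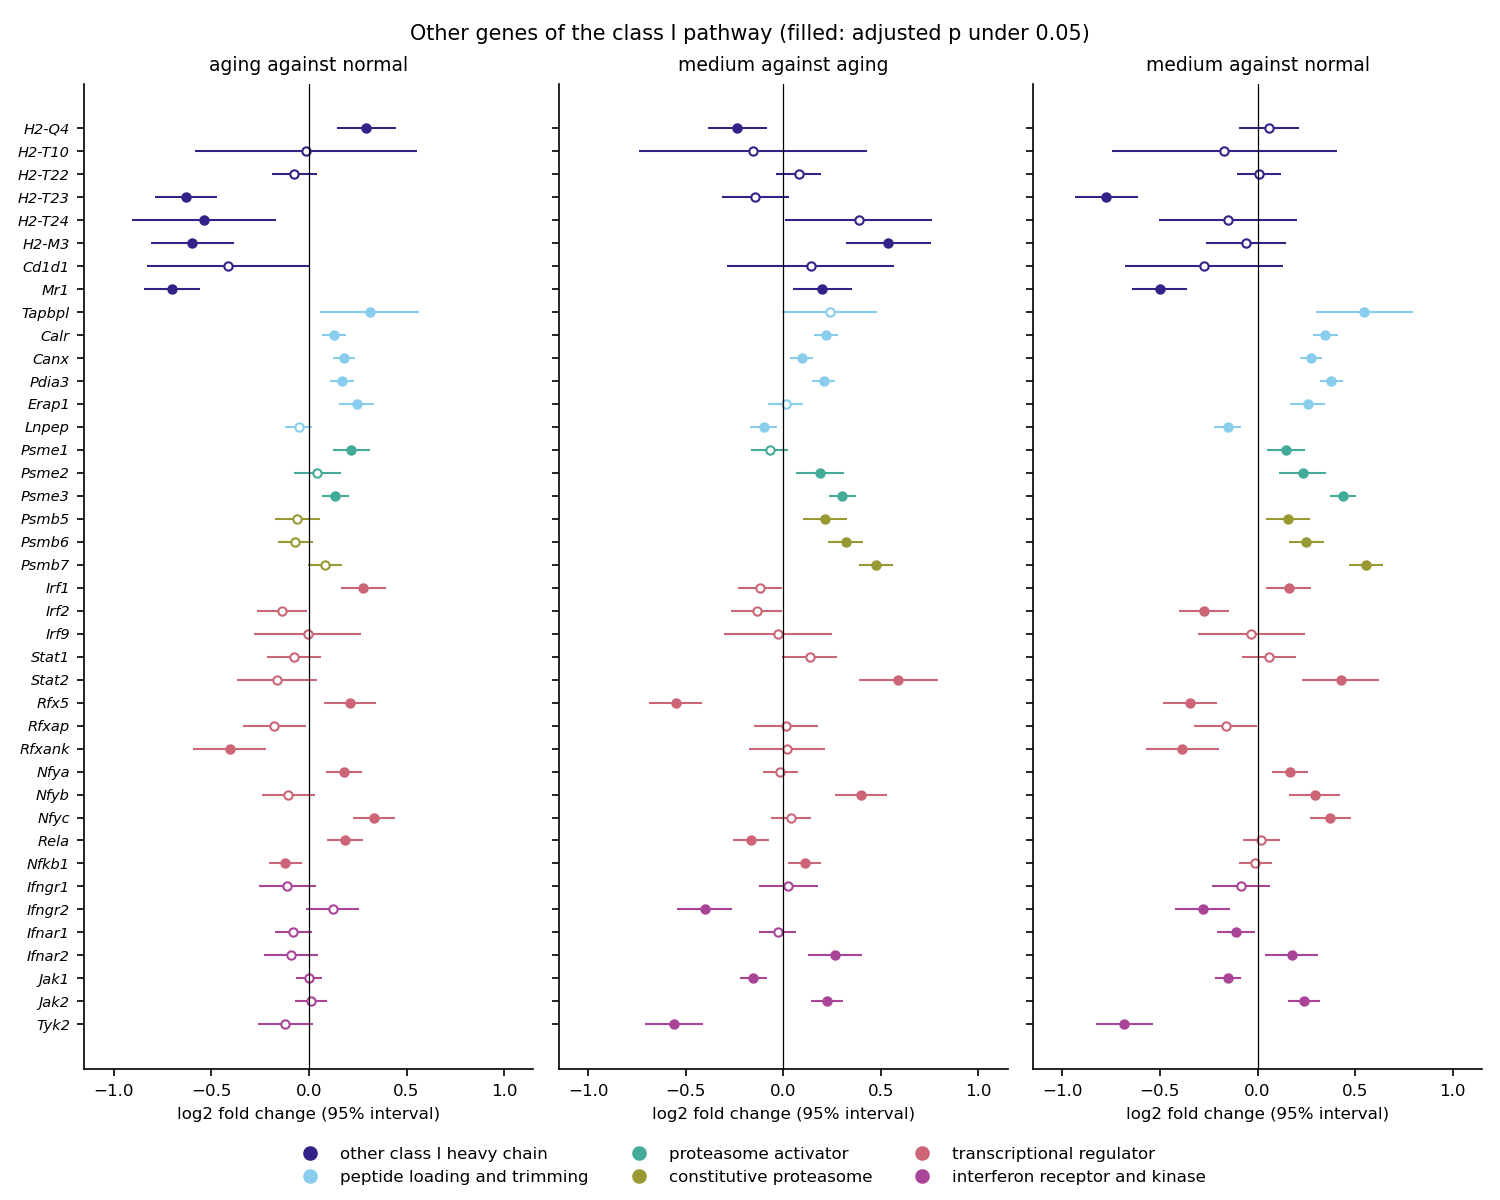
Log2 fold change (x axis) with 95% intervals of 40 other genes of the class I pathway in the 3 comparisons, coloured by role, with filled points for an adjusted p under 0.05 in edgeR. In aging RGCs the heavy chains H2-T23, H2-T24, H2-M3 and Mr1 lie to the left and H2-Q4 (0.29) to the right. Of the loading and trimming genes there, 5 lie to the right, and Lnpep (-0.05, not called) lies to the left. All 3 constitutive proteasome genes lie to the right with the medium.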

How the data were processed

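The table deposited by the authors gives, per library, an expected count for every gene (estimated reads, not always whole) and an FPKM value, which divides by transcript length and library size. Libraries were made from mRNA enriched with oligo(dT), and the submitters' processing notes name build mm10. The aligner, the counter and any strand setting were not given in the sources used here. Expected counts were rounded, since 6.92% to 7.38% of values carried decimals.

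edgeR 4.0.16 (R 4.3.3) was used with filterByExpr, TMM factors and 1 mean per group over 9 libraries (6 residual degrees of freedom). Quasi-likelihood F tests were adjusted by Benjamini-Hochberg over 12145 genes, and genes at an adjusted p under 0.05 were called. CPM are TMM-scaled. Ratios used FPKM and two-sided exact permutation. The procedure was tested on simulated data.

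Members and lists were chosen with earlier results of these data known. Named were all members, Psmb5 to Psmb7, the 5 genes most like the members' mean, and per comparison up to 6 other pathway genes, the largest changes among calls without overlap at 1 CPM or more. Deviations of same-numbered libraries correlated at -0.0368 to 0.0479, so numbers do not pair them. Chi-square per gene between replicates was 2.21 to 4.79, so none were duplicates. Alternatives were DESeq2 1.42.0, limma 3.58.1 on log2(FPKM + 1) and log2(FPKM + 0.1), other scalings and filters, 2 groups only, the replicate block, and each library left out. Summed H2-K1 and H2-D1 counts were added after the data were seen.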

Additional observations from a re-analysis of the deposited data

How the results depend on the processing

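Of 30 member tests, 11 were called, and 7 of these held under every alternative that did not require a 2-fold change. These were Psmb10 and Tap2 against normal RGCs in both D-galactose groups, Tapbp in both comparisons of medium-treated cells, and B2m in aging RGCs. Of 576 alternative values for the members, 505 kept direction and side of the threshold, 13 lost the call, 19 gained it and 39 changed sign, none of them a called result. When a replicate block was fitted, 4, 3 and 4 members were called in aging against normal, medium-treated against aging and medium-treated against normal RGCs, and no member's call changed. Only 2 of 9 libraries correlated best with their own number. With each library left out, 3 to 5, 2 to 4 and 3 to 6 members, 15 to 20, 18 to 22 and 24 to 28 other pathway genes and 4921 to 5633, 5750 to 6664 and 6794 to 7321 of all genes were called. With at least a 2-fold change required, 0 members, 0 other pathway genes and 322, 661 and 816 of all genes remained past both thresholds. With CPM in place of FPKM, the adjusted p of the Psmb9 to Psmb6, Psmb10 to Psmb7 and Tap1 to Tap2 ratios was 0.0429. Leaving out libraries gave adjusted p of 0.0357 to 0.136 for Psmb10 to Psmb7 and 0.0357 to 0.15 for Tap1 to Tap2, in both cases lowest without normal replicate 1.

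The member results that changed sign had log2 differences of at most 0.137 in size by edgeR's quasi-likelihood test, none of them called, and the cause was not tested. Rfxank, Nfyc, H2-Q4 and H2-M3, given beside them, are other pathway genes to which that limit does not apply. Among the other pathway genes followed, 0 called results changed sign. In aging against normal RGCs, H2-K1 gave -0.0129 and Psmb8 -0.00699 without TMM factors, H2-K1 -0.00593, Psmb8 -0.0165 and Nlrc5 -0.0592 with limma on log2(FPKM + 1), H2-K1 -0.00595, Psmb8 -0.017 and Nlrc5 -0.0729 on log2(FPKM + 0.1), and H2-K1 -0.0116 with its counts added to those of H2-D1. In medium-treated against aging RGCs, H2-K1 gave -0.0515, H2-D1 -0.00154, Tap2 -0.0462, Nlrc5 -0.0151, Rfxank -0.057 and Nfyc -0.0391 without TMM factors, H2-K1 -0.0019 and Rfxank -0.00734 with upper-quartile factors, H2-K1 -0.0493, H2-D1 -0.00773 and Tap2 -0.0722 with limma on log2(FPKM + 1), and H2-K1 -0.0495, H2-D1 -0.00777 and Tap2 -0.0795 on log2(FPKM + 0.1). In medium-treated against normal RGCs, H2-K1 gave -0.0645, H2-D1 -0.054, B2m -0.0382, Psmb9 -0.0904 and H2-Q4 -0.0407 without TMM factors, H2-K1 -0.00032 and Psmb9 -0.0265 with upper-quartile factors, H2-K1 -0.0552, H2-D1 -0.0615, B2m -0.0373 and H2-Q4 -0.0406 with limma on log2(FPKM + 1), and H2-K1 -0.0554, H2-D1 -0.0618, B2m -0.0374 and H2-Q4 -0.0429 on log2(FPKM + 0.1). The median of all genes in that comparison moved to -0.113 without TMM factors and to -0.103 on log2(FPKM + 0.1). Leaving out libraries spanned 0 for H2-K1 (-0.00812 to 0.0171) and Psmb8 (-0.0321 to 0.0554) in aging RGCs, Nlrc5 (-0.00929 to 0.117) and Rfxank (-0.0426 to 0.0704) in medium-treated against aging RGCs, and Psmb9 (-0.138 to 0.106) and H2-M3 (-0.177 to 0.00309) in medium-treated against normal RGCs. Psmb9 had the fewest counts of the members, 51 to 73 per library.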
